A study of Mus musculus with 16 samples.

Results

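The early response of mouse embryonic stem (ES) cells to the loss of Rybp was read from 8 of the 16 arrays of the series, chosen by their labels as all arrays of day 4. ES cells are pluripotent cells of the early embryo, here of a 129/B6 hybrid background, and they were grown as clone 10 and clone 15. The 4 KO arrays came from cells labelled Rybp-KO that had been given 4-hydroxytamoxifen (OHT) at 800 nM for 24 hours and were sampled 4 days after the treatment. The 4 control arrays came from the same clones without OHT, labelled wild-type control. Both groups held replicates 1 and 2 of each clone, so every KO array was paired with the control array of its own clone and replicate number. OHT was given to no control, so Rybp loss and any other effect of the drug, or of a recombinase under its control, cannot be told apart, and 2 clones limit how far the values speak for other lines. The medium held serum and ESGRO, which is leukaemia inhibitory factor, and the dishes carried irradiated embryonic fibroblasts as feeders or only gelatin. The labels do not assign arrays to either surface and are silent on whether each replicate was a culture of its own, so p-values measure only how much these arrays differ, some of which may be technical. The response was described over 19125 entries, which were 18193 genes, each read by its brightest single-symbol probe set, and the 932 probe sets that carry several gene symbols. A probe set is a group of probes read together as 1 value.

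Rybp binds the Ring1 and Rnf2 ubiquitin ligases of the Polycomb complex PRC1 and also the transcription factor Yy1, and it belongs to the variant PRC1 complexes, which ubiquitinate histone H2A without needing the chromobox proteins of canonical PRC1. A variant complex called PRC1.6 adds the DNA-binding proteins Mga, Max and E2f6 and is known to keep germ cell genes silent in ES cells. ES cell cultures are also known to hold rare cells that pass through a state in which transcripts of the 2-cell embryo, such as those of Zscan4, are switched on. In bulk RNA a higher level in every cell cannot be told apart from more cells in such a state.

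The targeted transcript was measured first. Of the 2 probe sets that carry the symbols of Rybp and of its pseudogene Rybp-ps, 1 read 2047, 3319, 2448 and 3200.2 on the control arrays, in the order clone 10 replicates 1 and 2 and then clone 15 replicates 1 and 2, which is used throughout. On the KO arrays it read 88.5, 91.0, 84.9 and 125. All values are deposited linear intensities. The lowest control array stood far above the highest KO array, and the level fell 28.1-fold (log2 fold change -4.81 ± 0.25, standard error, limma adjusted p = 0.000397) and the call held under every other setting of the fit. The other probe set did not fall. It read 2127, 2771, 297 and 255 in control and 4443, 7612, 4374 and 7579.9 in KO cells, and its log2 fold change of 2.82 ± 0.95 did not pass the test (limma adjusted p = 0.244). Its control level was high in clone 10 and low in clone 15. Which exons the probes read, and which were removed, was not used here, so the second probe set checks nothing.

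At day 4 the response was mainly one of genes switched up. Of 19125 entries, 158 were higher in KO cells at a limma adjusted p under 0.05 (0.826%) and 50 were lower (0.261%), while 2755 had an unadjusted p under 0.05. The entries that rose did so by a median of 2.06-fold, 84 of them by at least 2-fold and 33 by at least 4-fold. Those that fell did so by a median of 1.54-fold, and 10 fell by at least 2-fold. All 208 moved the same way in 4 of 4 pairs. On 125 of the 158 and 32 of the 50 the KO arrays did not overlap the control arrays at all. Both sets were picked by the test on these same arrays, so this adds no support. The share without overlap over all entries was not counted. When arrays were scaled to a list of housekeeping genes, 122 were higher and 76 lower, so the share of calls that were rises went from 76.0% to 61.6%.

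These counts depended on every pair and on the estimate of spread. Without 1 of the 4 pairs, in the order of pairs used above, 49, 53, 60 and 54 entries were higher and 4, 5, 8 and 8 were lower. The calls of 39 higher and 3 lower entries held in each of these fits, and those of 87 and 42 held in none. With no pairing of the arrays, 131 were higher and 13 lower, and with the 8 day 4 arrays alone 9 were higher and 1, Rybp, was lower. RNA integrity can be read from control probes at both ends of a transcript. For the transferrin receptor the log2 ratio of the 3' to the 5' end was higher on the KO array in 4 of 4 pairs (1.06 ± 0.09 in control and 1.26 ± 0.19 in KO cells, SD, n = 4). The ratios of Gapdh, actin and pyruvate carboxylase were higher on the KO array in 2, 3 and 2 pairs. The part of RNA integrity in the results was not tested.

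The genes that rose started from about the middle of the tested range, and those that fell were brighter. The median control intensity was 185 for the 158 entries that rose and 570.0 for the 50 that fell, against 184 over all entries tested and 93.3 over all probe sets of an array. With all entries split by control level into 4 bins of equal size, from dimmest to brightest, 20, 59, 55 and 24 entries rose and 7, 6, 20 and 17 fell. The median fold of the rises was 20.6 in the dimmest bin, where control arrays differed by a median SD of 1.15 on the log2 scale, and 1.58 in the brightest, where that SD was 0.20. Folds from dim controls therefore carry large errors. For them a floored fold is given, computed after every value below 28.3, the 25th percentile of intensity, was raised to it.

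The steepest rises belonged to genes of the 2-cell embryo, several of them repeated gene families that only probe sets with several symbols read. Zscan4 proteins, which act on telomeres and mark the 2-cell-like state, were read by a probe set that carries Zscan4a, Zscan4c, Zscan4d, Zscan4f and 2 unnamed loci. It read 62.4, 48.2, 166 and 95.9 in control and 5621, 4587, 12881 and 6644 in KO cells. Every KO array was bright and every control array dim, an 82.4-fold rise with the smallest p of all entries (log2 fold change 6.37 ± 0.12, limma adjusted p = 3.2e-06). The clone 15 replicate 1 KO array was the brightest of the 4, and its paired control was also the brightest control. Dux, the homeobox activator of the 2-cell programme (symbol Duxf3), was read by a probe set shared with Gm9919 and Gm4981 that went from 42.5, 31.4, 42.3 and 52.0 to 275, 126, 551 and 215, 6.12-fold (limma adjusted p = 0.02). Its own single-symbol probe set read a mean of 27.9 in control and 157 in KO cells without passing the test (log2 fold change 2.23 ± 0.59, limma adjusted p = 0.156). Zfp352, a zinc finger gene of the same stage, went from 59.8, 88.3, 71.7 and 40.8 to 372, 323, 465 and 395 (6.15-fold, limma adjusted p = 0.00294). Duxbl, a Dux-related family, was already expressed in control cells at 810.2 ± 61.4 (SD, n = 4) and rose 1.96-fold to 1601 ± 280.2. The 2 other Duxbl probe sets were not called, at log2 fold changes of 0.77 and 0.11 (limma adjusted p = 0.118 and 0.926). In the list of Zscan4, Dux and Zfp352 entries, 4 of 7 rose (57.1%, against 0.826% of all entries) and none fell. The median log2 fold change was 2.23 (1.96 with the floor), against 0.01 over all entries.

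Eif1a-like genes, tandem copies related to a translation initiation factor that are transcribed in 2-cell embryos, rose as steeply. The probe set of Gm4027, BB287469 and Eif1a read 36.2, 44.6, 82.3 and 81.1 in control and 4318, 4416, 8012 and 6178 in KO cells (96.7-fold, limma adjusted p = 1.1e-05). That of Gm4340 and 6 sister genes read 83.9, 116, 168 and 174 and 13032, 11428, 20836 and 15197 (114-fold, limma adjusted p = 0.000173), which placed it among the brighter transcripts of KO cells. The probe set of Gm2022, Gm8300 and Gm5662 was close to the lowest values of the table in control cells, at 2.01, 4.23, 35.2 and 2.11, and read 813, 709, 1896 and 777 in KO cells, a floored fold of 32.1. Gm4850, listed with them, went from a mean of 10.1 to 419.9 (floored fold 14.3). The single-symbol probe set of Eif1a itself, the ordinary initiation factor, read 4591 ± 1068 in control and 5461 ± 1001 in KO cells, with no call (log2 fold change 0.26 ± 0.08, limma adjusted p = 0.191). In all, 4 of 6 Eif1a-like entries rose (66.7%, against 0.826% of all entries), none fell, and their median log2 fold change was 5.99 (4.42 with the floor).

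The same pattern held for further preimplantation families. Usp17la, a deubiquitinating enzyme gene, read 55.9, 60.4, 88.6 and 18.1 in control and 2819.9, 1285, 6627 and 1928 in KO cells (54.1-fold, limma adjusted p = 0.000756), and the probe set of Usp17lc and Usp17ld rose from a mean of 30.1 to 210.2 (floored fold 4.37). Both are among 3 Usp17-like entries (66.7% of them called higher, against 0.826% of all entries), whose median log2 fold change was 3.83 (2.52 with the floor). AF067061, a gene of chromosome 13 listed with the Tcstv genes, went from 13.5, 11.1, 83.7 and 8.93 to 4328, 1551, 7818 and 2906, a floored fold of 94.7 (limma adjusted p = 0.000397). BC080696 went from 3.66, 9.46, 2.66 and 4.51 to 1000.5, 937, 2624 and 1741 (floored fold 50.9). Except for Usp17lc and Usp17ld, the groups of these entries did not overlap. Tcstv1 and Tcstv3 themselves were higher in 4 of 4 pairs but dim, with means of 10.1 and 9.70 in control and 88.7 and 48.9 in KO cells, and did not pass (limma adjusted p = 0.0744 and 0.12). The Tcstv list had 2 of 5 entries higher (40.0%, against 0.826% of all entries) and a median log2 fold change of 3.85 (2.10 with the floor).

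Of 20 Prame-like entries, a family of leucine-rich repeat proteins of the germline and early embryo, 2 rose (10.0%, against 0.826% of all entries) and none fell (median log2 fold change 0.64, or 0.12 with the floor). They were Pramel18, from 4.91, 4.76, 38.0 and 37.3 to 254, 225, 1029.8 and 405 (floored fold 12.0), and the probe set of Pramel42 and 6 unnamed relatives, from a mean of 9.25 to 155 (floored fold 4.85). Of 37 other preimplantation entries, 4 rose (10.8%, median log2 fold change 0.28, or 0.20 with the floor). Gm20767, the neighbour of AF067061, read 2.88, 4.95, 3.15 and 0.99 in control and 1075, 704, 2123 and 899 in KO cells (floored fold 38.8). Ubtfl1, an HMG-box gene required in the preimplantation embryo, rose from a mean of 8.39 to 493 (floored fold 16.3). The oocyte and embryo homeobox gene Obox6 (1.85-fold, 69.9 to 128) and the nuclear body gene Sp110 (3.26-fold, 74.9 to 260.5) changed by less.

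Several-symbol probe sets of unnamed loci moved with them. That of Gm13057, Gm13040 and Gm13043 read 62.9, 63.3, 74.1 and 49.3 in control and 5206, 3581, 11067 and 5472 in KO cells (93.9-fold, limma adjusted p = 0.000279), and that of Gm13871, Gm11757 and Gm11758 read 17.1, 29.0, 48.2 and 68.9 and 1400.5, 1163, 2526 and 1420.2 (floored fold 38.3). The set of Gm428, Gm11236, Gm11237, Gm11238, Gm11239 and Gm38423 rose 9.25-fold, from 149 ± 28.1 to 1458 ± 679. Single-symbol genes at this end of the range were Gm11544 (floored fold 31.6) and its neighbour Gm11545 (9.26), 3110040M04Rik (12.4), Ccser1 (6.58) and 9530059O14Rik (5.31). The call of Ccser1 rests on 1 probe set, since its other one, also dim, was at a log2 fold change of 0.33, and so does that of 9530059O14Rik, whose other one was at 0.74 without a call. In all, 18 of the 932 several-symbol probe sets rose (1.93%), against 140 of the 18193 single-symbol genes (0.770%), and 1, Rybp, fell. Median control intensities of these kinds of entry were close, at 198 and 183. The members of a repeat family share sequence, so neither the 18 rises nor the loci within a probe set are separate measurements.

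**Figure D1:**
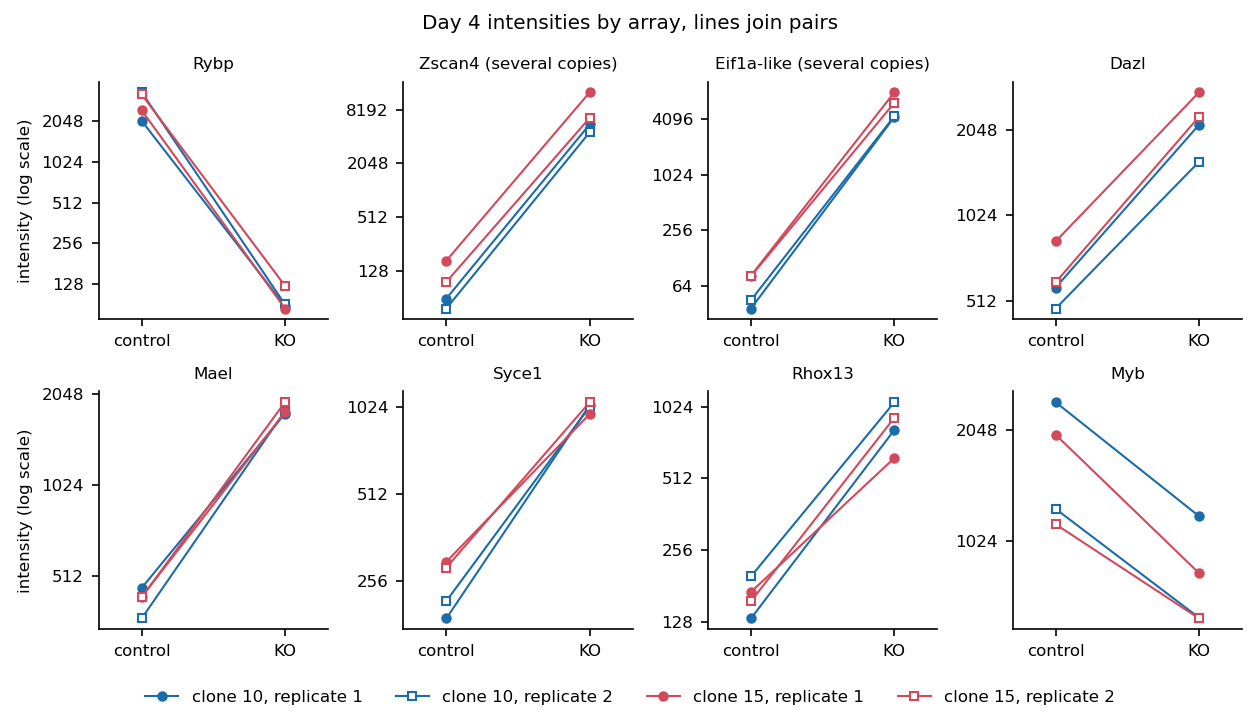
Each panel gives 1 transcript on the 8 arrays of day 4, with deposited intensity on a log2-spaced axis and lines joining the control and KO arrays of a pair (clone and replicate number). Rybp and Myb fell, and the Zscan4 and Eif1a-like probe sets, Dazl, Mael, Syce1 and Rhox13 rose, in all 4 pairs.

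Germ cell genes formed the second group of rises, smaller in fold but from controls well inside the measurable range. Among regulators of germ cell RNA and the piRNA pathway, which guards the germline against transposons, 6 of 29 rose and 1 fell. The share higher was 20.7%, against 0.826% of all entries, and the median log2 fold change was 0.36 (0.25 with the floor). Dazl, an RNA-binding protein needed for germ cell development, read 571, 481, 830.1 and 596 in control and 2137, 1583, 2783 and 2282 in KO cells. Each KO array was higher than every control array, a 3.55-fold rise (limma adjusted p = 0.000397), and a second probe set of Dazl read a log2 fold change of 1.74. Mael, a piRNA pathway protein of germ granules, read 468, 371, 437 and 436 and 1763, 1797, 1782 and 1922 (4.25-fold, limma adjusted p = 0.00136), with the KO arrays in a narrow band. Both were called with the day 4 arrays alone. Ddx4, the germ cell helicase also called Vasa, read 748, 596, 652 and 658 and 2180.1, 2282, 2023 and 2371 (3.34-fold, limma adjusted p = 0.00125).

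The other rises in this list were helicase, Tudor and Piwi genes. Mov10l1, a helicase that feeds precursors into piRNA processing, went from 202, 92.3, 261 and 127 to 844, 315, 836 and 376 (3.41-fold, limma adjusted p = 0.00129). Its replicate 1 arrays were brighter than its replicate 2 arrays in control and KO cells alike, and the call was lost when the arrays were not paired. Tdrkh, a Tudor domain partner of Piwi proteins, rose from 141, 137, 97.0 and 119.6 to 327, 558, 329.6 and 484 (3.38-fold), and Piwil2, a Piwi protein, from 542, 398, 604 and 434 to 1296, 890.3, 1256 and 939 (2.21-fold). For both, the groups did not overlap. Piwil4 also read higher in 4 of 4 pairs, from a mean of 46.5 to 131, without a call (limma adjusted p = 0.0666). Elavl2, an RNA-binding protein of neurons and oocytes, fell 1.37-fold from 2832, 2812, 2752 and 3299 to 2097, 2138, 1782 and 2550.5 (limma adjusted p = 0.0492), a call that every fit without a pair lost.

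Genes of the synaptonemal complex, the protein zipper that joins homologous chromosomes in meiosis, rose in 4 of 17 cases (23.5%, against 0.826% of all entries). None was lower, and the median log2 fold change was 0.34 (0.29 with the floor). Sycp1, its transverse filament, read 82.1, 104, 39.9 and 70.9 in control and 496, 464, 289 and 294 in KO cells (5.33-fold, limma adjusted p = 0.00349). Syce1, a central element protein, read 191, 219, 299 and 285 and 1034, 1023, 965 and 1059.8 (4.17-fold, limma adjusted p = 0.002). The KO arrays of Syce1 lay within a narrow band above every control array. Tex11, an X-linked meiotic gene, went from a mean of 129 to 494 (3.94-fold), and Syce3, a central element protein, from 284 to 536 (1.93-fold). Sycp3, the axis protein that is a usual marker of meiosis, was at 1844 ± 161 in control and 2256 ± 153 in KO cells and did not pass (log2 fold change 0.29 ± 0.14, limma adjusted p = 0.42). Sycp2 read higher in 4 of 4 pairs from a dim control without a call (log2 fold change 1.53 ± 0.31, limma adjusted p = 0.0837).

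Meiotic entry and recombination genes gave 1 call, with 1 of 22 higher (4.55%, against 0.826% of all entries), none lower and a median log2 fold change of 0.05. The riser was Ccnb1ip1, a crossover regulator, which went from 119, 148, 102 and 137 to 274, 331, 299 and 383 (2.56-fold, limma adjusted p = 0.032). Stra8, the retinoic acid target that starts meiosis, was higher in 4 of 4 pairs, at 156, 185, 231 and 229.9 in control and 289.8, 401, 349.9 and 493 in KO cells, but did not pass (log2 fold change 0.93 ± 0.21, limma adjusted p = 0.101). Dmc1, the meiotic recombinase, read 866 ± 111 and 816 ± 148 (log2 fold change -0.10 ± 0.07), and Spo11 and Prdm9 were near the bottom of the range on most arrays.

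Of 41 testis-expressed and cancer-testis entries, 4 rose (9.76%, against 0.826% of all entries) and none fell (median log2 fold change 0.40, or 0.13 with the floor). Slc25a31, the testis form of the mitochondrial ADP/ATP carrier, read 89.2, 179.7, 105 and 171 in control and 523, 804, 458 and 854 in KO cells (4.89-fold, limma adjusted p = 0.0113), a call that each fit without a pair lost although the day 4 arrays alone kept it. Stk31, a Tudor domain kinase of the testis, rose 2.58-fold, from 240.5 ± 74.9 to 635 ± 252. Tex19.1, which restrains retrotransposons in germ and ES cells, was already bright and rose 1.99-fold, from 3011, 1642, 2604 and 1693 to 5541, 3116, 5618 and 3492. Taf9b, a paralogue of a general transcription factor subunit, rose 1.72-fold. Sohlh2, a transcription factor of early spermatogonia and oocytes that stands on none of these lists, was among the 10 smallest p, at 375, 339.7, 362 and 342 in control and 1244, 916, 1177 and 1083 in KO cells (3.10-fold, limma adjusted p = 0.000397).

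Genes that specify primordial germ cells, the embryonic precursors of the germline, gave no calls at day 4. With 0.826% of all entries higher and 0.261% lower, a list this short could have none in any case. None of 13 passed in limma in either direction (5 at an unadjusted p under 0.05), with a median log2 fold change of -0.04, and 5 of 13 had a positive value. Prdm1, a repressor that specifies these cells, read 419, 465, 549 and 495 in control and 369, 268, 341 and 376 in KO cells, lower on each KO array but without a call (limma adjusted p = 0.0986). Prdm14 read 627 ± 106 and 676 ± 95.1, and Dppa3 3295 ± 355 and 3488 ± 171. Ifitm1 had a log2 fold change of -0.32 ± 0.08 and Kitl of 0.36 ± 0.16 (limma adjusted p = 0.133 and 0.377).

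All 4 Rhox entries rose (100%, against 0.826% of all entries, median log2 fold change 1.22). The list held only these 4 entries, so it does not speak for other Rhox genes. Rhox genes are an X-linked cluster of reproductive homeobox genes that is silenced by DNA methylation in the embryo proper. Rhox13 read 132, 198, 171 and 156 in control and 818, 1069.8, 623 and 921 in KO cells (5.18-fold, limma adjusted p = 0.00303), and Rhox6 384, 388, 509.9 and 478 and 1293, 1123, 1263 and 1149 (2.76-fold, limma adjusted p = 0.00281). Rhox9 read 302, 331, 460.1 and 438 and 519, 830.0, 815 and 858 (1.97-fold), with clone 10 replicate 1 the lowest KO array. Rhox5 was bright in control cells and rose 1.44-fold, from 6748, 7116, 8349.8 and 8699 to 10734, 10619, 11548 and 11489 (limma adjusted p = 0.0343). The calls of Rhox5 and Rhox9 were lost in every fit without a pair and without the pairing, and that of Rhox5 also under housekeeping scaling. The 4 genes are neighbours on the X chromosome among the genes tested.

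The promoters of the germ cell genes were read for the letters that partners of Rybp-containing PRC1 are known to bind. The motifs were the E-box CACGTG of Mga and Max, the E2F letters TCCCGC and the Yy1 letters AGATGGC, each on either strand and counted without regard to the others, in the 300 bases from 250 before to 50 after each RefSeq start (build GRCm38.p6). CACGTG lay in the promoter of 7 of the 13 risen germline-list genes with an entry in the table (53.8%), in 16 of 72 germline-list genes without a call (22.2%), in 10 of 91 other risen genes (11.0%), in 1479 of 14452 tested genes (10.2%) and in 7.15% of all 32851 promoters. TCCCGC lay in 7 of the 13 (53.8%), 47.2% of the uncalled germline-list genes, 32.9% of tested genes and 20.0% of all promoters, and AGATGGC in 1 of the 13 and 7.47% of tested genes. The 13 were picked by their rise, so these shares are a description with no test. Syce1, Syce3, Ccnb1ip1 and Tdrkh rose without CACGTG in this window and are not shown. The 250 bases before the start are shown for the 4 RNA regulator and synaptonemal genes whose upstream part holds the E-box, and for Dazl, which also rose and holds none of the 3 motifs. Capitals mark CACGTG and TCCCGC or its reverse complement GCGGGA, and each is read 5′ to 3′ on the strand of the gene.
Sycp1 (chr3:102936101-102936350, minus strand): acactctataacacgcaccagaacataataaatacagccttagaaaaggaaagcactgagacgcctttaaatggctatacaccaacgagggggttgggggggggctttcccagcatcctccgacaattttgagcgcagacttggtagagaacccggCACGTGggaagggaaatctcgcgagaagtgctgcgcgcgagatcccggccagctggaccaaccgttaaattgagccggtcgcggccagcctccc
Ddx4 (chr13:112652311-112652560, minus strand): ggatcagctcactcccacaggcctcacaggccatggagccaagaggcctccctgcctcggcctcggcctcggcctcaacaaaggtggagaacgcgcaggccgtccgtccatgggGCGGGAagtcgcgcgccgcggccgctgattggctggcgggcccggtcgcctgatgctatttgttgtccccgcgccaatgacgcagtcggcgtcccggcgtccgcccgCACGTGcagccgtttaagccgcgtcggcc
Mael (chr1:166238745-166238994, minus strand): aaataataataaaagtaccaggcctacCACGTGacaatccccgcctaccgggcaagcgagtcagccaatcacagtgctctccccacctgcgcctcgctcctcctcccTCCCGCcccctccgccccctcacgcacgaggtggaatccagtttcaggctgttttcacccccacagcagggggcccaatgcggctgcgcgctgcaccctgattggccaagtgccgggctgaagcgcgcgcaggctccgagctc
Mov10l1 (chr15:88982744-88982993, plus strand): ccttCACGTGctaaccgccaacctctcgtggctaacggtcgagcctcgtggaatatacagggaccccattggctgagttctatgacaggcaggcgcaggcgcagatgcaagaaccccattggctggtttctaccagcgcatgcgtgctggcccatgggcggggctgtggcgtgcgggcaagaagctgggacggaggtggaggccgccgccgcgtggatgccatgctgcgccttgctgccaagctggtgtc
Dazl (chr17:50293621-50293870, minus strand): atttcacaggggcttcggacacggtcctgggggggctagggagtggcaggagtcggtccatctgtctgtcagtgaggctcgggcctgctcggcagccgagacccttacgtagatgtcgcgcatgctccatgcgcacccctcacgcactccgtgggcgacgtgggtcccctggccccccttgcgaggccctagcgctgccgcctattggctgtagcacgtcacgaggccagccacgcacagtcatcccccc
The E-box begins 94 bases before the start in Sycp1, 29 in Ddx4, 223 in Mael and 246 in Mov10l1, so it has no fixed place among them. The E2F letters begin 136 bases before the start in Ddx4 and 143 in Mael, and, in the part of the searched window past the start that is not shown, once each in Sycp1 and Mael. A match is no evidence of binding, and its absence from this window says nothing of the factor.

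Polycomb genes themselves gave few calls. Of 31 PRC1 entries 1 rose (3.23%, against 0.826% of all entries) and 1, Rybp, fell. Of 14 PRC2 entries none passed in limma (2 at an unadjusted p under 0.05). Phc2, a polyhomeotic subunit of canonical PRC1, read 384, 345, 223 and 388 in control and 598, 703, 563 and 708 in KO cells (1.96-fold, limma adjusted p = 0.0265), a call lost in every fit without a pair. Yaf2, the close relative of Rybp that takes the same place in PRC1, read 375, 249, 409 and 339.6 and 512, 463, 493 and 457, higher on each KO array but without a call (log2 fold change 0.51 ± 0.10, limma adjusted p = 0.084). The ligases Ring1 and Rnf2 had log2 fold changes of -0.03 ± 0.16 and -0.04 ± 0.09. In PRC1.6, 1 of 19 entries rose (5.26%). E2f6, its E2F-family repressor, went from 765, 597, 939 and 643 to 1081, 803, 1276 and 878 (1.37-fold, limma adjusted p = 0.0444), with overlapping groups and a call lost in every fit without a pair. Pcgf6 read 2976 ± 293 in control and 2879 ± 169 in KO cells, and L3mbtl2 1359 ± 359 and 1388 ± 514. Mga was 3136 ± 373 against 2674 ± 289.9 (log2 fold change -0.23 ± 0.09, limma adjusted p = 0.299). Among PRC2 subunits and regulators the furthest from 0 was Ezhip, an inhibitor of Ezh2, at 94.5, 96.5, 154 and 101 in control and 299, 148, 367 and 194 in KO cells (limma adjusted p = 0.0978).

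Classical developmental targets of Polycomb gave no calls at day 4, but many of them were dim. Their median control intensity was 29.4 for Hox entries and 48.9 for the other targets below, against 184 over all entries. With 0.826% of all entries higher and 0.261% lower, lists of this size could hold few or no calls in any case. None of 39 Hox entries passed in limma in either direction (1 at an unadjusted p under 0.05, median log2 fold change 0.16, or 0.07 with the floor), and none of 101 developmental transcription factors that are known Polycomb targets in ES cells (16 at that p, median -0.07, 49 of 101 positive). Members furthest from 0 were at the bottom of the range, where arrays of a group differ most. Hoxa2 read 12.2, 46.3, 53.1 and 23.9 in control and 5.40, 4.53, 17.99 and 4.88 in KO cells (limma adjusted p = 0.227), Six6 26.7, 39.3, 7.53 and 69.9 and 1.41, 2.62, 1.52 and 11.3 (limma adjusted p = 0.219) and Irx5 2.50, 25.8, 5.41 and 51.1 and 67.3, 21.6, 85.8 and 58.1 (limma adjusted p = 0.311).

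The ES cell state was measured with 10 identity markers, none of which passed in limma (1 at an unadjusted p under 0.05). Pou5f1, the core pluripotency factor, read 11593, 12590.2, 13405 and 12476 in control and 11808, 12040.1, 11642 and 10817 in KO cells, and the markers summed to 122300 to 132120 per control array and 123283 to 130126 per KO array. Dppa5a alone averaged 45254 in control, so the sum says little of dimmer markers. Within groups Zfp42 ranged from 2659.5 to 9588 in control and 2305 to 9896.5 in KO cells, and Esrrb from 1872 to 4411 and 1699.5 to 5146. Klf4 (0.38 ± 0.11) and Utf1 (-0.16 ± 0.09) had the log2 fold changes furthest from 0, with limma adjusted p = 0.201 and 0.506. Of 33 naive pluripotency genes 1 rose (3.03%, against 0.826% of all entries). It was Fbxo15, an F-box gene expressed in ES cells, which went from 6613, 7863, 6317 and 7964 to 10457, 9829, 10847 and 11752 (1.5-fold, limma adjusted p = 0.0425). Of 21 primed epiblast genes none passed in limma (5 at an unadjusted p under 0.05) and 5 were positive (median log2 fold change -0.26).

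Trophectoderm and primitive endoderm lists gave 4 and 2 rises. Of 30 trophectoderm entries 4 rose (13.3%, against 0.826% of all entries) and none fell (median log2 fold change 0.29), and all 4 are also on the Rhox list or the list of imprinted genes. They were Rhox6, Rhox9, H19, the imprinted non-coding RNA, at 1500.1, 920.1, 2655 and 1333 in control and 3024, 1907, 5048 and 2181 in KO cells (1.90-fold), and Phlda2, an imprinted brake on placental growth, at 4833, 5263, 3811 and 5128 and 6583, 7049, 6548 and 7734 (1.47-fold). Of 33 primitive endoderm genes 2 rose (6.06%), both of them collagen biosynthesis genes that other cell types use as well. P4ha2, a collagen prolyl hydroxylase, went from 399, 386, 388 and 481 to 779, 885, 1042 and 844 (2.14-fold), and Serpinh1, the collagen chaperone, from 1093, 947, 1138 and 939.8 to 2038, 1650.0, 2238 and 1637 (1.83-fold). Serpinh1 was also the only call among 22 heat shock chaperones.

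Feeder fibroblasts could contribute RNA, so their markers were read beside these. Of 41 feeder entries 2 rose (4.88%, against 0.826% of all entries) and none fell (median log2 fold change 0.15). Igfbp3, an IGF-binding protein, went from 342, 297, 271 and 222 to 1318, 670.2, 1691 and 754 (3.68-fold, limma adjusted p = 0.017), with replicate 1 of each clone brighter than replicate 2. Thy1, a fibroblast surface protein, went from 372, 148, 328 and 113 to 612, 233, 595 and 264 (1.82-fold, limma adjusted p = 0.0295), with overlapping groups. The 40 single-symbol markers summed to 25453 to 32249 per control array and 26616 to 33660 per KO array, and 26 of 40 had a positive log2 fold change. The other defining fibroblast markers did not pass. Their log2 fold changes were 0.38 ± 0.17 for Col1a1, -0.14 ± 0.16 for Col1a2, 0.07 ± 0.15 for Col3a1, 0.49 ± 0.33 for Postn and -0.47 ± 0.33 for Lum. With errors of this size, small shifts in either direction cannot be told from none. The part of feeder RNA in the rises of Serpinh1, P4ha2, Igfbp3 and Thy1 was not tested.

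Imprinted genes gave 4 rises and 1 fall among 49 entries (median log2 fold change 0.01). The share higher was 8.16%, against 0.826% of all entries. Cdkn1c, the cell cycle inhibitor p57, read 346, 392, 348 and 304 in control and 755, 846, 773 and 874 in KO cells (2.34-fold, limma adjusted p = 0.00349), was kept in every fit without a pair and was the single call among 30 p53 targets and cell cycle inhibitors. Ndn rose 1.76-fold, from 394 ± 122 to 674 ± 96.9, beside H19 and Phlda2. Nnat, a small membrane protein gene, fell 1.69-fold, from 250.1, 195, 152 and 215 to 139.6, 115, 103 and 119 (limma adjusted p = 0.0242).

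FGF signalling, which drives ES cells towards differentiation through ERK, gave calls in both directions, 1 higher and 3 lower of 27. The share higher was 3.70%, and over all entries 0.826% were higher and 0.261% lower. Cnpy1, which promotes FGF receptor maturation, read 1526, 1207, 1121 and 1087 in control and 774, 759.7, 615 and 534 in KO cells, 1.85-fold lower (limma adjusted p = 0.00608), with log2 fold changes of -0.74 and -0.79 on 2 further probe sets. The kinase Braf fell 1.40-fold, from 1384 ± 86.5 to 989 ± 32.6, and Il17rd, an inhibitor of FGF signalling also called Sef, fell 1.37-fold, from 871 ± 78.2 to 638 ± 58.0. Fgfr3, a receptor, rose 2.26-fold, from 88.2, 147, 178 and 275 to 189, 441, 312 and 629 (limma adjusted p = 0.0166), with overlapping groups. The calls of Braf and Il17rd were lost in every fit without a pair.

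Interferon response genes gave 3 rises (6.98%, against 0.826% of all entries) and no fall among 43 entries while the list's median log2 fold change was -0.09. They were Sp110, Xaf1 (1.70-fold, 234 to 402) and the immunoproteasome subunit Psmb9 (1.62-fold, 174 to 282), all lost in every fit without a pair. The other probe sets of Sp110 (log2 fold changes -0.16 and -0.79) and of Xaf1 (-0.50), all dimmer, did not rise. Of 28 genes of DNA methylation and retroviral silencing none passed in limma (3 at an unadjusted p under 0.05). Dnmt3a, a de novo DNA methyltransferase, read 2337, 2532, 1843 and 1974 in control and 1808, 2011, 1579 and 1416 in KO cells (log2 fold change -0.35 ± 0.07, limma adjusted p = 0.0695). Of 33 amino acid stress genes 1 fell (0.261% of all entries did) and none rose. Slc6a15, a transporter of neutral amino acids, went from 540.0, 524, 472 and 536 to 303, 294, 288 and 319, 1.72-fold lower with no overlap, and was kept in every fit without a pair (limma adjusted p = 0.00349). Of 33 housekeeping entries none passed in limma (4 at an unadjusted p under 0.05, median log2 fold change 0.01).

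**Figure D2:**
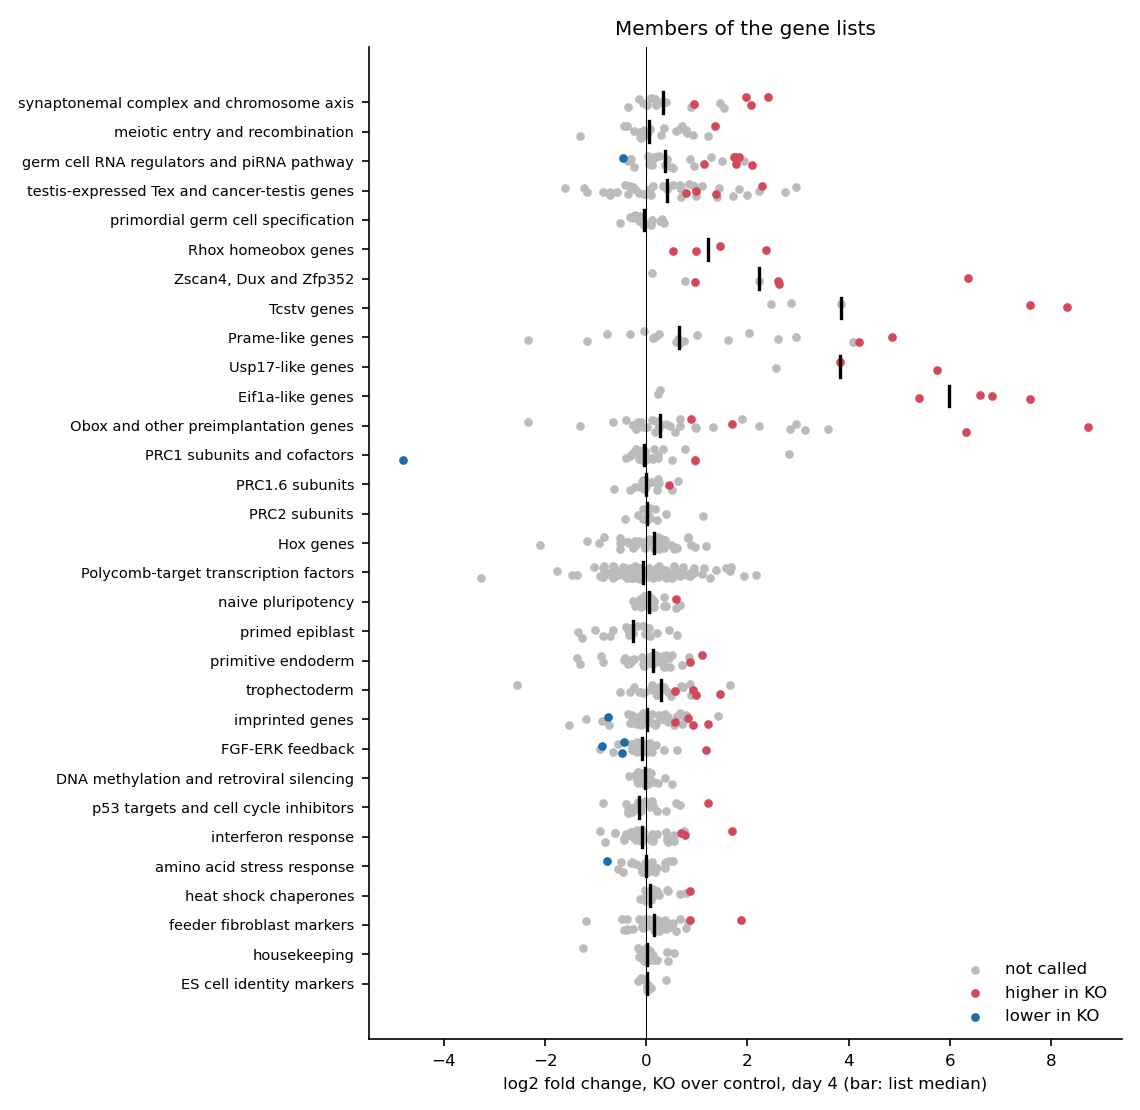
Each point is the log2 fold change of KO over control at day 4 of 1 member of the gene list named at the left, coloured where it passed the test, and the bar marks the list's median. The Eif1a-like, Tcstv, Usp17-like, Zscan4 and Rhox lists have medians above 1, and the Hox, Polycomb-target, PRC2, primed epiblast and housekeeping lists have no member past the test.

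Beyond the lists, the rises with the smallest p included Tmem132c, a transmembrane protein gene, from 32.7, 23.5, 62.9 and 30.6 to 188, 127, 311 and 156 (5.29-fold, limma adjusted p = 0.000173), and Gstm5, a glutathione transferase, from 468, 462, 433 and 561 to 1049, 1240.0, 1082 and 1416 (2.48-fold, limma adjusted p = 0.000478). Pdlim3, a muscle actin-binding protein gene, rose 5.98-fold, from 93.8, 83.2, 95.0 and 56.0 to 356, 453, 593 and 555. Among several-symbol probe sets outside the 2-cell families, that of Luzp4, Ott and 7 further X-linked copies rose 3.08-fold (142, 119, 147 and 103 to 425, 442, 359.5 and 342) and that of Trf, the iron carrier transferrin, and Srprb rose 2.25-fold (156 to 344). Chosen after their values were seen, the fatty acid carrier Fabp5 and the retinoid carriers Crabp1 and Rbp4 were other rises, at 3869.7 to 8213, 437 to 1301 and 88.0 to 191.

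Some rises lay side by side in the genome. Among tested protein-coding genes, neighbouring pairs of risen entries were Gm11545 and Gm11544, Gm20767 and AF067061, BB287469 and Gm2022, Pdlim4 and P4ha2, Them5 and Tdrkh, and Zkscan16 and Ptgr1, beside the 4 Rhox genes. Probe sets of Duxbl, Plac9, Gm9780 and Tmem254, which lie in the copies of 1 repeated segment, rose together by 1.96, 1.65 (Plac9 with Gm9780) and 1.48 times. Whether neighbours changed independently was not tested.

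Falls were fewer, smaller and mostly in well-expressed genes. Myb, a transcription factor of progenitor cells, read 2443, 1252, 1993 and 1137 in control and 1197, 633, 838 and 631 in KO cells, 2.04-fold lower (limma adjusted p = 0.00753). It was lower in each pair, although the groups overlapped because replicate 1 arrays were brighter than replicate 2 arrays in control and KO cells, and the call was lost without the pairing and without either clone 10 pair. Its other 2 probe sets read log2 fold changes of -1.38 and -0.90. Polr3gl, an RNA polymerase III subunit paralogue, fell 1.82-fold, from 711, 527, 654 and 431 to 401, 318, 356 and 214, and Nrep, a neuronal regeneration protein gene, 1.61-fold, from 1136, 862, 1109 and 840.2 to 703, 594, 571 and 568. H1f6, the testis linker histone H1t, read 65.1, 36.1, 38.0 and 67.0 and 16.2, 7.09, 4.39 and 8.33, below the floor on every KO array (floored fold 1.75 lower), and so it fell while the called testis genes above rose, near the bottom of the range. The calls of Polr3gl, Nrep and H1f6 were lost in every fit without a pair.

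The other named falls ranged from 1.56-fold to 1.84-fold. They were the transcription factor Tcf24, the cardiac troponin Tnni3 (1.76), the non-coding A930024E05Rik (1.73), the acid-sensing channel Asic1 (1.73), N4bp2l1 (1.63), Tdrp (1.6), the phosphodiesterase Pde8a (1.59) and the bromodomain gene Baz2b, all lost in every fit without a pair. The other probe set of N4bp2l1, which was dimmer, was at a log2 fold change of 0.21 without a call. Other probe sets of called genes mostly moved the same way. Of 115 further probe sets for 70 risen genes, 100 had the same sign, 61 of them with an unadjusted p under 0.05, and 2 had the other sign at that p. Of 53 for 25 fallen genes, 49 had the same sign, 25 at that p, and none had the other sign at that p. When every probe set was tested, 8 of the 9160 without a gene symbol were higher and 1 was lower.

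No difference between the clones was called. No entry had a KO effect that differed between clone 15 and clone 10 at a limma adjusted p under 0.05 (914 at an unadjusted p under 0.05, smallest adjusted p 0.374), and none differed between replicate 2 and replicate 1 (997, smallest 0.104). A test with 2 pairs per clone does not show that the clones act alike. Over the 158 rises, the median log2 ratios of KO to control in the 4 pairs were 1.09, 1.07, 1.09 and 1.04. Over the 50 falls they were -0.58, -0.54, -0.67 and -0.64. Both sets were picked by the test on these same pairs, so alike medians say nothing of whether the clones agree. In level, as distinct from the KO effect, 4471 entries differed between the replicate sets at day 4 and 0 between the clones. The pairing takes such level differences out of the 208 calls between KO and control, so these counts are not comparable with the 208.

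Day 12 gave the same measure on 8 other arrays of the same clones, from cells given OHT at the same dose and from untreated cells. The estimate of spread is shared between the days. At day 12, 943 entries were higher (4.93%) and 659 lower (3.45%). Of the 158 entries that rose at day 4, 154 had the same sign at day 12 and 146 were called higher, which is 92.4% of them and 15.5% of the day 12 rises. Of the 50 that fell, 46 had the same sign and 35 were called lower, 70.0% of them and 5.31% of the day 12 falls. Median log2 fold changes at day 4 and day 12 were 1.04 and 1.04 for the rises and -0.63 and -0.63 for the falls. Equal medians do not mean equal effects, since 106 of the 158 rises and 28 of the 50 falls were larger at day 12. For 44 of the rises and 24 of the falls the days differed at an unadjusted limma p under 0.05. That share over all entries was not counted. Individual genes differed more between the days, as with Dazl (1.83 and 2.91), Ccnb1ip1 (1.35 and 2.44), the set of Gm13871 (5.44 and 7.97) and Rybp (-4.81 and -4.09), none of which passed the test of that difference.

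Only Tmlhe, an enzyme of carnitine synthesis, passed the test of the difference between the days. It was not called at day 4, at 69.2, 112, 78.9 and 105 in control and 52.3, 79.1, 54.9 and 58.6 in KO cells (-0.57 ± 0.12, limma adjusted p = 0.0908), but rose at day 12 from 62.2 ± 36.7 to 203 ± 81.2 (SD, n = 4, limma adjusted p = 0.000719). The difference of 2.37 ± 0.17 on the log2 scale (limma adjusted p = 0.0357) was lost when any 1 pair was left out. The 8 entries called at day 4 with the other sign at day 12 were H2al2a, Gabrr1, 4930545L23Rik and 2310047D07Rik among the rises and Tmem169, Xkrx, Gulo and 4933407G14Rik among the falls. Of these, 2310047D07Rik alone was called at day 12, as lower (log2 fold change -0.43, limma adjusted p = 0.0319). H2al2a, a testis histone variant, read only 5.29, 5.60, 18.7 and 12.1 in control and 13.9, 20.6, 45.7 and 48.2 in KO cells at day 4, and Tmem169 33.8, 48.0, 36.5 and 44.1 and 10.4, 10.3, 17.4 and 10.1, near or below the floor.

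**Figure D3:**
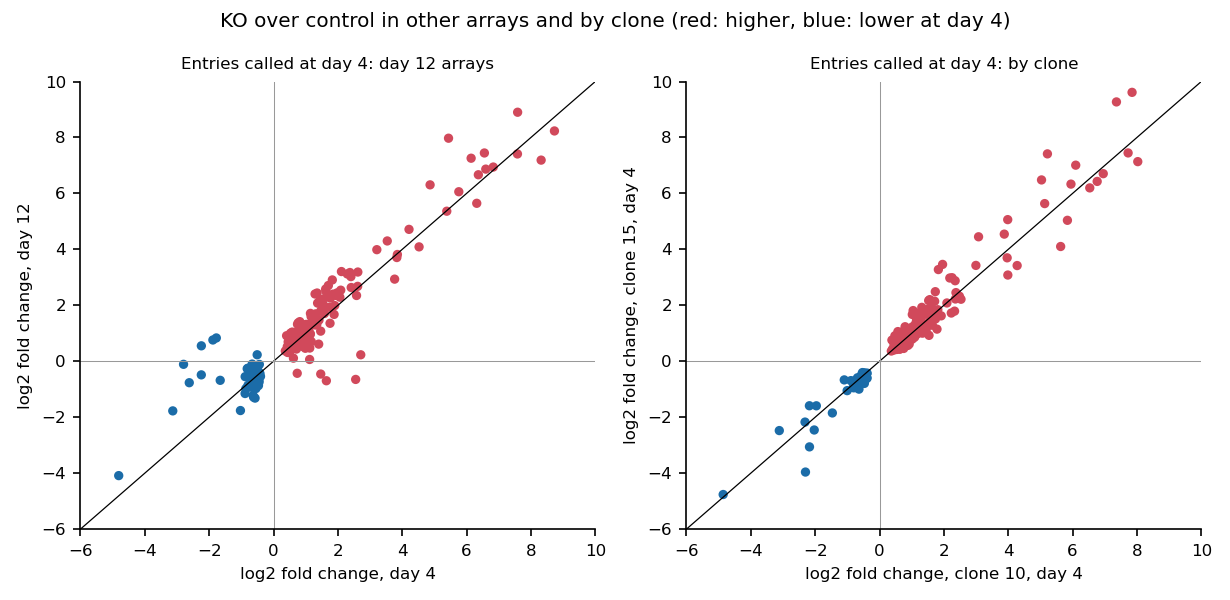
The 208 entries called at day 4 are plotted by their log2 fold change at day 4 (horizontal) and day 12 (vertical) in 1 panel, and by the mean log2 ratio of the clone 10 pairs (horizontal) and the clone 15 pairs (vertical) in the other, with the line of equal values. Of these entries 200 have the same sign at both days, and all 208 have the same sign in both clones because each moved the same way in 4 of 4 pairs.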

How the data were processed

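RNA of 16 arrays was read on the Affymetrix Mouse Genome 430 2.0 array (45101 probe sets; the series' design text names the 430A 2.0). The deposited values are linear intensities, which the authors made with Affymetrix Expression Console and RMA, per the submitters' processing notes; settings and versions are not given in the sources used here. All columns hold the same sorted values, so they had been quantile-normalized together. The values were log2-transformed with no offset, since they were not on the log2 scale that had been assumed. The platform annotation gave the names: 34945 had 1 gene symbol, 932 several and 9160 none, after 64 controls were left out.

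The main fit was limma 3.58.1 (lmFit and eBayes, R 4.3.3) on all 16 arrays with the 8 pairs (day, clone, replicate number) as blocks and a KO effect per day, with 6 residual degrees of freedom and Benjamini-Hochberg adjustment over 19125 entries at 0.05. Day 12 arrays add only to the estimate of spread. Pairing comes from the labels. Deviations of paired day 4 arrays from their group means correlated at 0.144, 0.132, 0.127 and 0.152 over all entries and 0.585 to 0.685 over entries above the median. Errors of intensities are SD (n = 4), and those of log2 fold changes are standard errors. The script was tested on simulated data. The number of arrays limits the precision.

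Genes and the 31 lists were chosen with earlier results of these data known. Named were Rybp, the 15 largest rises and falls of single-symbol genes and 12 largest rises of several-symbol probe sets by floored fold, the 10 smallest p, the called members of each list or else up to 3 members furthest from 0, and entries whose sign differed at day 12. Members without a call that the text gives beside them were chosen for their known role. Alternatives were the fit without pairing, day 4 alone, every probe set, filters on dim entries, a floor, housekeeping scaling, another prior, leaving out each pair, and lists without several-symbol probe sets. RefSeq promoters (GRCm38.p6) were searched for motifs; no genome was used.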

Additional observations from a re-analysis of the deposited data

Results flagged for a closer look

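In groups of 4 arrays a value is singled out where its gap to the nearest array exceeds Dixon's 95% critical share of the group's range, which chance does in about 1 in 20 groups. Among the named entries that were called at day 4, this held on the log2 scale for 6 values, on 3 arrays. Named entries without a call are not covered here. P4ha2 read 480.632 on the clone 15 replicate 2 control array, against 386.0 to 399 on the others. Elavl2 read 3298.64 on the same array, against 2752 to 2832. On the clone 10 replicate 1 KO array Braf read 939.975, against 1002 to 1009, and Rhox9 read 519.343, against 815 to 858. On the clone 15 replicate 1 KO array the probe set of Gm2022, Gm8300 and Gm5662 read 1895.76, against 709 to 813, and Tmem169 read 17.4253, against 10.1 to 10.4. The KO effect of Tmlhe differed between the days by 2.37465 on the log2 scale (day 12 minus day 4, limma adjusted p = 0.0357).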

How the results depend on the processing

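The 158 entries higher and 50 lower became 9 and 1 with the day 4 arrays alone, 81 and 11 with every probe set, 396 and 218 with only entries above the median, 322 and 156 with a floor at the 25th percentile, 122 and 76 scaled to housekeeping genes, and 451 and 243 with a trend and robust prior. With that prior the lists without a call had 0 to 2 calls each. With no replicate block they were 131 and 13, of which 91 and 9 were among the 158 and 50, and leaving out 1 array from that fit gave 76 to 101 and 2 to 10. Leaving out 1 pair gave 49 to 60 and 4 to 8. The cause of these shifts was not tested, beyond the smaller number of arrays. No alternative turned a called entry named in the text; Tet3, without a call (0.51 on the log2 scale), gave -0.0685 to 0.9262 when a pair was left out. Differences between the clones stayed at 0 entries except for 1 with the trend and robust prior. For the difference between the days, the 1 entry became 0 with every probe set, with no replicate block and without any 1 pair, 4 with only entries above the median, 2 with the floor and 76 with the trend and robust prior. Entries below an intensity of about 41.5, the top of the dimmest bin, had a median SD between control arrays of 1.15 on the log2 scale, which limits what could be called there.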
